A study of Mus musculus with 6 samples.

Results

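Smooth muscle contracts when myosin pulls on actin filaments that are anchored at dense bodies and at the cell membrane. Differentiated smooth muscle is recognised by a set of genes for its actins, its myosin, the proteins that bind or organise the actin filaments, and the filaments that hold the cell together. Many of these genes are switched on by the serum response factor (SRF) and its partner myocardin. In the eye, smooth muscle forms the sphincter and dilator of the iris, the ciliary muscle and the wall of arterioles, including those that enter the retina. The neural retina itself holds no muscle layer, and its capillaries carry pericytes, a related contractile cell type. The smooth muscle contractile genes examined were *Acta2*, *Actg2*, *Myh11*, *Myl9*, *Cnn1*, *Tagln*, *Smtn*, *Synpo2*, *Lmod1* and *Des*. They were chosen by symbol, and all 10 had a row among the 23420 genes of the count table.

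The study sequenced retinal RNA from 6 mouse libraries, 2 in each group, to ask how bright light and the antibiotic minocycline change retinal gene expression. The control retinas were from animals without treatment. The light-exposed retinas were taken 4 days after 1 h of light. Retinas of the third group had the same light exposure, and these animals received 45 mg/kg minocycline by daily intraperitoneal injection for 4 days. The sample labels name CD1 mice, light of 10000 lux and an RNeasy kit, whereas the methods of the study describe adult albino BALB/cJ mice of both sexes, brighter light, minocycline from the day before exposure, and another RNA kit. The study calls the libraries of a group biological replicates, and the labels do not name the animals. Per those methods, pupils were dilated with phenylephrine and tropicamide, drugs that act on the iris muscles, ahead of the light. All minocycline retinas were also exposed to light, and no group received minocycline alone. The columns of the third group share one header and so have no replicate number. They are called minocycline A and minocycline B by column order, which is a name only.

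Total counts ranged from 15205930 to 22856922 a library, and 16594 to 17421 genes had counts. Levels are given as CPM, the count of a gene relative to a library size scaled by the trimmed mean of M-values (TMM). A gene with 0 counts could have reached 3 counts, which is 0.131 to 0.213 CPM, and such limits cover counting error only. Control 1 stood apart from the other libraries by sex-linked transcripts, with 77778 counts of *Xist* and 11 over 4 Y-linked genes, against 25 to 188 and 6532 to 12858 in the other libraries. Light-exposed replicate 1 stood apart by lens genes, whose summed level was 197 CPM against 0.996 to 20.1 CPM elsewhere. Fits without single libraries are given, as fold changes, beside the smooth muscle genes whose calls or direction they change. A group left with 1 library shows no spread of its own, so p-values of these fits are not printed. In RNA from whole tissue, fewer cells of a type and less RNA in each cell cannot be told apart.

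*Acta2*, *Myh11* and *Tagln*, among the genes of the set with the largest changes, were found at low levels in every control and light-exposed library. They stood at much higher levels in both minocycline libraries. In minocycline B they reached 135.9, 110.1 and 71.8 CPM, and in minocycline A 23.6, 23.8 and 15.7 CPM. No control or light-exposed library exceeded 6.55 CPM for any of them. Minocycline B held over 4 times the level of minocycline A for each of these genes, and no smooth muscle gene passed edgeR's test when each comparison with minocycline was fitted on its own 4 libraries after the filter on low counts. Of the 8 genes that passed the filter on low counts in both groups, DESeq2 without shrunken fold changes called 5 against light and 2 against control, where it called 0.719% and 0.705% of all genes higher. *Smtn* overlapped between the minocycline and the light-exposed libraries. *Synpo2* followed another pattern and was lower in the light-exposed libraries than in the other 4. Its adjusted p passed for light against control, but its change was smaller than the fold cutoff.

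**Figure D1:**
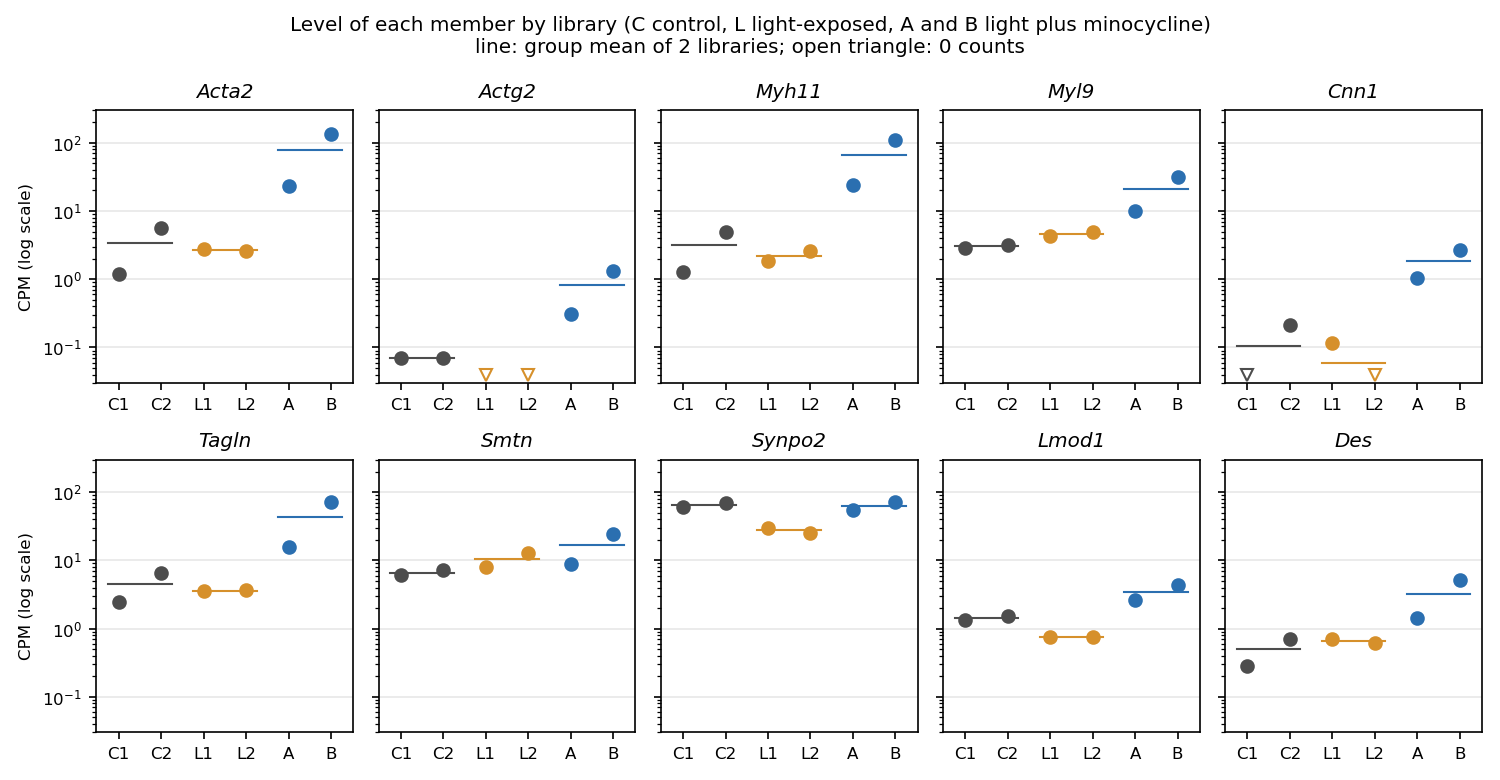
Level of each of the 10 smooth muscle genes in each library, in CPM on a log scale. Points are libraries (C1 and C2 control, L1 and L2 light-exposed, A and B light plus minocycline), lines are group means of 2 libraries and open triangles are libraries with 0 counts. Minocycline B is the highest point in every panel, and the light-exposed libraries of *Synpo2* (30.1 and 24.9 CPM) lie below its controls (60.9 and 69.6 CPM).

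*Acta2* encodes the α-actin of smooth muscle, the main actin of the contractile filaments. It is annotated on chromosome 19 at 34241090 to 34255590 of GRCm38, on the minus strand, with 10 merged exons. Counts were 17 and 79 in controls 1 and 2. Light-exposed replicates 1 and 2 held 47 and 55 counts, and minocycline A and B held 541 and 2564. The levels were 1.21, 5.57, 2.75, 2.61, 23.6 and 135.9 CPM in that order. Light-exposed libraries lay between both controls, and both minocycline libraries lay above all 4 others. The log2 fold change was −0.33 ± 0.62 (SE) for light against control, where the quasi-likelihood test of edgeR gave an adjusted p (Benjamini-Hochberg) of 0.762. It was 4.92 ± 0.96 for minocycline against light (adjusted p = 0.0878, edgeR) and 4.59 ± 1.53 for minocycline against control (adjusted p = 0.742, edgeR). Without minocycline A these were 5.70 and 5.36, and without minocycline B 3.14 and 2.80.

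*Actg2*, the γ-actin best known from the gut wall, was close to the limit of detection. It had 1 count in each control, 0 in each light-exposed library, and 7 and 25 in minocycline A and B. The 32 counts with minocycline were at least 9.73-fold higher than in the light-exposed group, with the floor of 3 counts set over that group. Against the 2 counts of the controls the ratio was 10.8, with a 95% counting interval of 2.76 to 93.1. The gene was too low for the filter of the edgeR fits with all 4 libraries in each of the 3 comparisons.

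*Myh11* encodes the smooth muscle myosin heavy chain, the motor of the thick filament and the most specific marker of the set. It is on chromosome 16 at 14194535 to 14291372, on the minus strand, with 43 merged exons. Its levels were 1.28 and 5.002 CPM in the controls, 1.87 and 2.57 CPM after light, and 23.8 and 110.1 CPM in minocycline A and B. As for *Acta2*, control 2 was above both light-exposed libraries and control 1 below them. The log2 fold change was −0.49 ± 0.58 after light (adjusted p = 0.618, edgeR), 4.92 ± 0.87 for minocycline against light (adjusted p = 0.0794, edgeR) and 4.45 ± 1.32 for minocycline against control (adjusted p = 0.704, edgeR). The values with minocycline became 5.65 and 5.16 without minocycline A and 3.42 and 2.92 without minocycline B.

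*Myl9* encodes the regulatory light chain whose phosphorylation starts contraction, and it is also used outside muscle. The controls had 2.92 and 3.17 CPM, the light-exposed libraries 4.33 and 4.89 CPM, and minocycline A and B 9.97 and 31.8 CPM. The 3 groups did not overlap, and the controls were the lowest. The differences were 0.60 ± 0.34 on the log2 scale after light (adjusted p = 0.266, edgeR), 2.20 ± 0.58 for minocycline against light (adjusted p = 0.126, edgeR) and 2.82 ± 0.60 for minocycline against control (adjusted p = 0.285, edgeR). For the comparisons with minocycline, leaving out minocycline A gave 2.82 and 3.42, and leaving out minocycline B gave 1.12 and 1.72.

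SRF binds the CArG box, an element of 10 bases with a core of A and T between CC and GG. Promoter windows of 300 bases, with 250 before and 50 after the start of the gene, came from RefSeq (GRCm38.p6) and had an entry for 7 of the 10 genes. *Actg2*, *Myh11* and *Tagln* had none there. A strict box was found in 1.63% of all 32851 windows, and a further 8.36% held a box with 1 G or C in its core. A box on one strand reads as a box on the other, so one search covers both. Among the 7 genes, *Myl9* held a strict box whose first base is at −161 from the start of the gene and a box with a G in the core at −99. *Acta2* held 2 boxes with a C or a G in the core, at −84 and −34. The 4 stretches are shown because they hold the boxes found among these genes, in the pair that stood highest per length among the 7 in both minocycline libraries. Each is 30 bases, read 5′ to 3′ on the strand of the gene, and capitals mark the box:
Acta2 at chr19:34255438-34255467, minus strand: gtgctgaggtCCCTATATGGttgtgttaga
Acta2 at chr19:34255388-34255417, minus strand: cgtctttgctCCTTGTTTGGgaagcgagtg
Myl9 at chr2:156775293-156775322, plus strand: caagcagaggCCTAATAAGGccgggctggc
Myl9 at chr2:156775355-156775384, plus strand: cattcttctgCCTTGTAAGGccgggcggcc

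The windows of *Cnn1*, *Smtn*, *Synpo2*, *Lmod1* and *Des* held neither form. This says only that these letters are absent from windows of this length, and enhancers and introns were not searched. The 2 *Acta2* boxes lie inside an exon that GENCODE annotates for *Acta2*, and the *Myl9* boxes outside exons. Binding of SRF was not measured.

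*Tagln* encodes transgelin, an actin-binding protein that bundles filaments and is an early marker of smooth muscle. It had 34 and 93 counts in the controls, 60 and 78 after light, and 360 and 1355 in minocycline A and B, at 2.42, 6.55, 3.51, 3.71, 15.7 and 71.8 CPM. The log2 fold change was −0.31 ± 0.45 after light (adjusted p = 0.687, edgeR), 3.62 ± 0.79 for minocycline against light (adjusted p = 0.0978, edgeR) and 3.32 ± 1.10 for minocycline against control (adjusted p = 0.715, edgeR). The values with minocycline were 4.35 and 4.03 without minocycline A and 2.13 and 1.81 without minocycline B. Control 1 was its lowest library and minocycline B its highest. An antisense gene, *Gm48529*, covers 62.4% of the exon bases of *Tagln*, and the use of strand in the counting is not given in the sources used here. Reads of this pair cannot be told apart without strand.

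*Cnn1* encodes calponin, which binds actin and restrains myosin. It had 0 and 3 counts in the controls, 2 and 0 after light, and 24 and 50 in minocycline A and B. Minocycline libraries stood at 1.045 and 2.65 CPM and every other library at or below 0.211 CPM. From the counts of the groups, 74 against 2, the ratio to light was 33.8 with a 95% counting interval of 9.02 to 284, and against the 3 counts of the controls it was 16.7 (5.48 to 82.6). The adjusted p was 0.0709 against light and 0.199 against control in edgeR. The fitted log2 fold change was 4.98 against light and 4.06 against control. It was 5.51 and 4.58 without minocycline A, 4.16 and 3.22 without minocycline B, and 8.27 against light without light-exposed replicate 1. *Cnn1* passed the filter on low counts only through the minocycline libraries, and for light against control it was not tested.

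*Lmod1* encodes leiomodin, which starts new actin filaments, and *Des* encodes desmin, the intermediate filament of muscle that pericytes also make. *Lmod1* stood at 1.35 and 1.55 CPM in the controls, 0.760 and 0.760 CPM after light, and 2.66 and 4.29 CPM in minocycline A and B. The groups did not overlap, with light-exposed libraries lowest and minocycline libraries highest. *Des* was at 0.284 and 0.705 CPM in the controls, 0.701 and 0.618 CPM after light, and 1.44 and 5.09 CPM with minocycline. Only the minocycline libraries of *Des* stood clear of the others. For *Lmod1* the log2 fold change was −0.92 ± 0.45 after light (adjusted p = 0.199, edgeR), 2.20 ± 0.43 for minocycline against light (adjusted p = 0.0709, edgeR) and 1.29 ± 0.40 against control (adjusted p = 0.429, edgeR). For *Des* the values were 0.41 ± 0.59, 2.31 ± 0.67 and 2.73 ± 0.75, with adjusted p of 0.684, 0.126 and 0.362 in edgeR. The values of *Des* with minocycline were 2.98 and 3.38 without minocycline A and 1.13 and 1.53 without minocycline B.

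*Smtn* encodes smoothelin, found on the actin of contractile smooth muscle, and it was measured well in all libraries with 86 to 455 counts. It had 6.12 and 7.12 CPM in the controls, 8.07 and 13.0 CPM after light, and 8.97 and 24.1 CPM in minocycline A and B. Minocycline A lay between both light-exposed libraries, so these groups overlapped. The log2 fold change was 0.68 ± 0.30 after light (unadjusted p = 0.0454, adjusted p = 0.163, edgeR), 0.67 ± 0.51 for minocycline against light (adjusted p = 0.521, edgeR) and 1.36 ± 0.47 for minocycline against control (adjusted p = 0.589, edgeR). Without minocycline B the value against light was −0.23. Without light-exposed replicate 1 the change after light was 0.98, below the fold cutoff.

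*Synpo2* encodes synaptopodin 2, also called myopodin, an actin-bundling protein of dense bodies and Z-discs. It had 515 to 1352 counts in the 6 libraries, the most of the set in every control and light-exposed library. Its levels were 60.9 and 69.6 CPM in the controls, 30.1 and 24.9 CPM after light, and 55.7 and 71.7 CPM in minocycline A and B. Both light-exposed libraries lay below the other 4, and the minocycline libraries spanned the range of the controls. The log2 fold change after light was −1.25 ± 0.16 (unadjusted p = 1.04e-05, adjusted p = 0.00627, edgeR), which did not reach the cutoff of 2 in size. The change was −1.35 without control 1 and −1.15 without control 2, where the adjusted p no longer passed. For minocycline against light the change was 1.23 ± 0.18 (adjusted p = 0.0691, edgeR). It was 1.36 without light-exposed replicate 1 and 1.42 without minocycline A, still short of the fold cutoff. For minocycline against control the change was 0.0077 ± 0.18 (adjusted p = 0.991, edgeR).

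Markers of rods were also lowest in the light-exposed libraries. The summed level of 8 rod genes was 73270 to 93010 CPM in the controls, 38820 to 54910 CPM after light and 79510 to 85640 CPM with minocycline, and none was at 0 in any library. In the comparison of light with control, 7 of these 8 genes were lower at an unadjusted p under 0.05, against 28.9% of all genes in either direction. At an adjusted p under 0.05, 1 was lower, against 3.8% of all genes. The median log2 fold change of the 8 rod genes was −0.80. Their part in the values of *Synpo2* was not tested.

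For light against control, 8 of the 10 genes were tested and 0 were called, by edgeR as by DESeq2, where called means that the adjusted p was under 0.05 and the log2 fold change reached 2 in either direction. Of all 14349 genes tested, 2.92% were called. By adjusted p alone 1 gene was lower, *Synpo2*, and 0 were higher, against 3.8% of all genes lower and 7.52% higher. At an unadjusted p under 0.05, *Smtn* was higher and *Synpo2* lower, 2 of 8 genes against 28.9% of all genes in either direction. Among the 8 genes tested, both light-exposed libraries lay above both controls for *Myl9* and *Smtn* and below both for *Synpo2* and *Lmod1*. Such arrangements, above and below, were found in 30.6% and 30.3% of all genes tested. *Actg2*, not tested, was below on 0 counts against 1 in each control. The median log2 fold change of the 8 genes was −0.32 (−0.33 without *Des*, which was over the filter in 1 of 2 controls), with a range from −1.25 to 0.68, and the median of all genes tested was 0.0025. The values of *Acta2*, *Myh11* and *Tagln* took their sign from 1 control library. Leaving out control 1 gave −1.06, −1.17 and −0.86, whereas leaving out control 2 gave 1.14, 0.79 and 0.57. *Des* changed from 0.41 to −0.10 without control 1.

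For minocycline against light, 9 genes were tested and 0 were called, with 0.0475% of all 14750 genes called by edgeR. *Cnn1* entered this fit only through the minocycline libraries, so counts are given over the 8 genes that passed the filter in both groups. Of these 8, fitted changes of at least 2 on the log2 scale were found for 6, against 0.983% of all genes, and without minocycline B for 3 (*Acta2*, *Myh11* and *Tagln*). At an unadjusted p under 0.05, 7 of the 8 were higher, every one but *Smtn*, against 9.04% of all genes. This count changed with the library left out and was lowest in the fits without a light-exposed library. Both minocycline libraries lay above both light-exposed libraries for 7 of the 8, which was so for 26.0% of all genes tested. The median log2 fold change over the 8 was 2.26 (2.31 with *Cnn1*), against 0.0062 for all genes. Over the 8 it was 2.90 without minocycline A, 1.47 without minocycline B, and 2.28 and 2.23 without light-exposed replicates 1 and 2. Adjusted p ranged from 0.0691 to 0.521. Leaving out 1 library changed the count of calls, where the lone library is assumed to vary like the other pair. Without minocycline A, 5 of the 8 were called (*Acta2*, *Des*, *Myh11*, *Myl9* and *Tagln*) beside *Cnn1*, and 0.736% of all genes were called higher. Without minocycline B, 2 were called (*Acta2* and *Myh11*), against 0.0528% of all genes. Without light-exposed replicate 1, *Cnn1* was the one call, against 0.178% of all genes. DESeq2 without shrunken fold changes called 5 of the 8 (*Acta2*, *Lmod1*, *Myh11*, *Myl9* and *Tagln*) beside *Cnn1*, against 0.719% of all genes called higher.

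For minocycline against control, 9 genes were tested and 0 called, with 0.134% of all 14181 genes called by edgeR. *Cnn1* again passed the filter only through the minocycline libraries, and *Des* was over it in 1 of 2 controls, so counts are given over the 7 genes that were over it in every library. Of these 7, 4 had a fitted change of at least 2 on the log2 scale, against 1.32% of all genes, and 2 without minocycline B. At an unadjusted p under 0.05, 4 of the 7 were higher, against 5.39% of all genes. This count changed with the library left out and was lowest in the fits without a control library. Both minocycline libraries lay above both controls for 6 of the 7, every one but *Synpo2*, which held for 15.9% of all genes tested. The median log2 fold change over the 7 was 2.82, against 0.021 for all genes. Adjusted p over the 7 ranged from 0.285 to 0.991, and it was 0.199 for *Cnn1*. Without minocycline A, 2 of the 7 were called (*Myl9* and *Tagln*) beside *Des*, *Actg2* and *Cnn1*, and 1.91% of all genes were called higher. Without minocycline B, 2 of the 7 were called (*Acta2* and *Myh11*) beside *Cnn1*, against 0.681% of all genes. DESeq2 without shrunken fold changes called 2 (*Myh11* and *Myl9*), against 0.705% of all genes called higher. The comparisons share groups, so their values are not independent of each other.

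**Figure D2:**
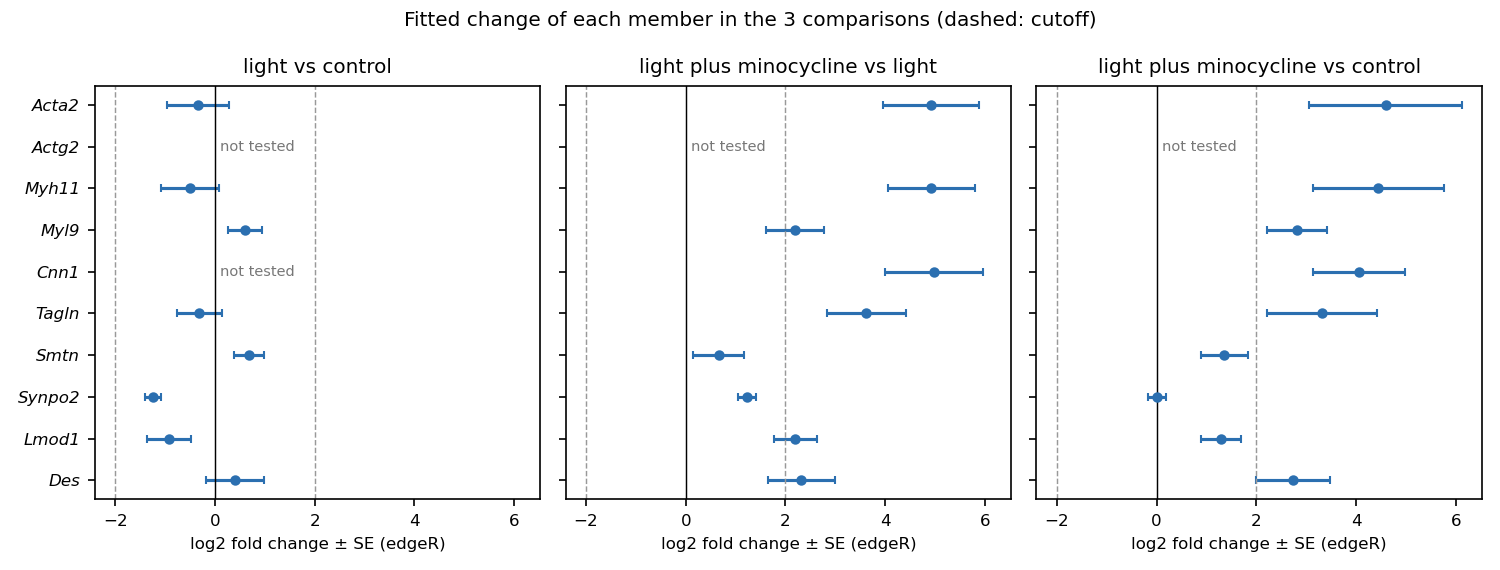
Fitted log2 fold change ± SE of each smooth muscle gene in the 3 comparisons (edgeR, 2 libraries a group), with dashed lines at the cutoff of 2 in size. Changes after light lie between −1.25 and 0.68, whereas *Acta2*, *Myh11* and *Cnn1* reach 4.92 to 4.98 against light with wide errors, and *Synpo2* is at 0.0077 against control.

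The libraries of the minocycline group differed from each other for every gene of the set. The ratio of minocycline B to minocycline A was 5.77 for *Acta2*, with a 95% counting interval of 5.26 to 6.34. It was 4.63 (4.21 to 5.10) for *Myh11* and 4.58 (4.08 to 5.16) for *Tagln*. The ratio was 3.19 for *Myl9*, 2.69 for *Smtn*, 1.62 for *Lmod1* and 1.29 for *Synpo2*, and the interval of each of the 10 genes lay above 1. Minocycline B was at least 2 times minocycline A for 8 of the 10 genes, against 2.49% of the 14713 genes tested in all 6 libraries. It was the highest library for all 10 genes, and minocycline A was second for 8.

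The controls also differed for these 3 genes, at lower levels. The ratio of control 2 to control 1 was 4.60 (2.70 to 8.30) for *Acta2*, 3.91 (2.30 to 6.97) for *Myh11* and 2.71 (1.81 to 4.14) for *Tagln*. For *Myl9*, *Smtn* and *Lmod1* it was 1.09 to 1.16, and these intervals held 1, while that of *Synpo2* (1.14, 1.04 to 1.25) did not. Control 1 was the lowest library for 6 of the 10 genes. The light-exposed libraries were closer, with ratios of replicate 2 to replicate 1 of 0.951 for *Acta2*, 1.37 for *Myh11* and 1.06 for *Tagln*. Their intervals held 1, and only those of *Smtn* (1.61, 1.31 to 2.00) and *Synpo2* (0.826, 0.730 to 0.934) did not.

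**Figure D3:**
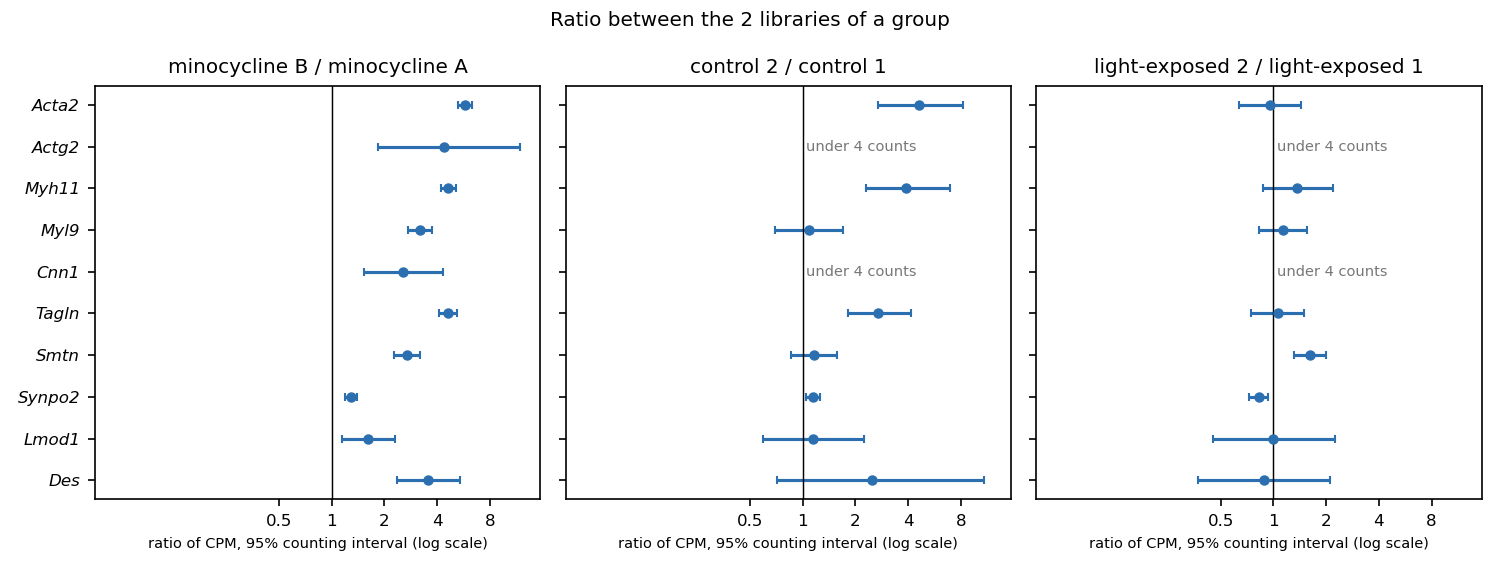
Ratio of CPM between the 2 libraries of each group for each smooth muscle gene, on a log scale, with 95% counting intervals. Ratios of minocycline B to A lie between 1.29 and 5.77, and control 2 to control 1 reaches 4.60 for *Acta2*, while no ratio between the light-exposed libraries exceeds 1.61. Genes with under 4 counts in a pair of libraries are not drawn.

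Levels of different genes were compared per kilobase of merged exons. In the controls the mean of *Synpo2* was highest at 4.99 CPM per kb, and those of *Myl9*, *Tagln*, *Acta2* and *Smtn* were 2.62, 2.26, 1.54 and 1.51. The order of these 4 was not the same in both controls. In control 1 *Smtn* (1.40) was above *Tagln* (1.22) and *Acta2* (0.551), and in control 2 *Tagln* (3.30) was above *Myl9* (2.73). In the minocycline group the order was *Acta2* at 36.3, *Tagln* at 22.0, *Myl9* at 18.0, *Myh11* at 8.81 and *Synpo2* at 4.87 CPM per kb. *Acta2* was first in minocycline A (10.7) and in minocycline B (61.9). *Tagln* and *Myl9* changed places between these libraries, with 7.89 and 8.58 CPM per kb in A and 36.1 and 27.4 in B, so their order is within the spread of the group. *Myh11* and *Synpo2* changed places too, with 3.13 and 4.26 CPM per kb in A and 14.5 and 5.48 in B. *Lmod1*, *Des*, *Cnn1* and *Actg2* stayed below 1 CPM per kb in the means of each group.

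Across the 6 libraries, *Tagln*, *Myh11* and *Acta2* were closest to the rest of the set. Pearson's r of log2 CPM with the mean of the other tested genes was 0.997, 0.990 and 0.989, and it was 0.706 for *Smtn* and 0.473 for *Synpo2*. Of 14704 other genes, the 10 most like the mean profile of the set were *Mrc2* (r = 0.997), *Tspan10* (0.997), *Wnt16* (0.995), *Edn3* (0.994), *Islr* (0.992), *Gja1* (0.990), *Tyr* (0.990), *Tpm2* (0.989), *Dcn* (0.988) and *Bace2* (0.988). These values describe 6 points that share 2 high minocycline libraries. *Tpm2* encodes a tropomyosin of muscle, *Dcn* and *Islr* are expressed by fibroblasts, *Tyr* encodes the enzyme that starts melanin synthesis, and *Gja1* encodes connexin 43. In these 10 genes minocycline B was 3.62 to 6.23 times minocycline A.

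The wider contraction machinery showed no shift of this size in its summed level. Of 40 further genes of contraction and its control, from myosin kinase and phosphatase subunits to receptors and SRF partners, 37 were tested. Their summed level ranged from 1332 to 1552 CPM in the controls, 1393 to 1501 CPM after light and 1359 to 1669 CPM with minocycline. Without *Flna* the sums were 1188 and 1331 CPM in the controls, 1201 and 1257 CPM after light, and 1191 and 1426 CPM in minocycline A and B. A gene as low as *Tpm2* (4.88 and 19.1 CPM in minocycline A and B) hardly moves such sums. None of the 37 genes was called in any comparison. The median log2 fold change was 0.13 after light, 0.12 for minocycline against light and 0.22 for minocycline against control. At an unadjusted p under 0.05, 5 were higher and 3 lower after light, 4 higher and 2 lower for minocycline against light, and 7 higher and 0 lower for minocycline against control. Of all genes, 28.9% were under this p after light in either direction, and 9.04% and 5.39% were higher in the comparisons with minocycline. *Tpm2* had the largest change, with 10 and 24 counts in the controls, 24 and 26 after light, and 112 and 360 with minocycline (A, then B). Its log2 fold change was 3.20 ± 0.72 against light (adjusted p = 0.0934, edgeR) and 3.35 ± 0.82 against control (adjusted p = 0.373, edgeR).

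Among the regulators and receptors of contraction, *Myocd*, which encodes myocardin, had 13 and 21 counts in the controls, 38 and 32 after light, and 11 and 19 in minocycline A and B. Both minocycline libraries and control 1 held fewer CPM than the other libraries, and the log2 fold change was −1.32 ± 0.51 for minocycline against light (adjusted p = 0.197, edgeR). *Prkg1*, the cGMP-dependent kinase that relaxes smooth muscle, passed the adjusted p after light at 1.19 ± 0.20 (adjusted p = 0.0132, edgeR) without reaching the fold cutoff. *Mkl1*, an actin-regulated partner of SRF, was lower after light by the same measure at −0.58 ± 0.16 (adjusted p = 0.0409, edgeR). Differences that did not pass the adjusted p were found for *Ednra*, the endothelin receptor of vessel muscle, at 1.29 ± 0.55 after light, and for *Chrm2*, a muscarinic receptor, at 1.10 ± 0.43 for minocycline against light, with adjusted p of 0.150 and 0.199 in edgeR.

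Smooth muscle lies beside pericytes and endothelium in vessels, and beside pigment cells and stroma in the iris and ciliary body, so markers of these cells were read in the same libraries. Their summed levels are given with the members. The 10 smooth muscle genes summed to 76.6 and 99.5 CPM in the controls, of which *Synpo2* was the largest, to 52.2 and 53.0 CPM after light, and to 143.1 and 458.8 CPM in minocycline A and B. Without *Synpo2* the other 9 summed to 15.6 and 29.9 CPM in the controls, 22.1 and 28.2 CPM after light, and 87.4 and 387 CPM in minocycline A and B, so that both light-exposed sums lay between those of the controls. The 10 pericyte genes, mostly *Vtn*, summed to 873 to 973 CPM in the controls, 550.3 to 697 CPM after light and 931 to 972 CPM with minocycline. The 10 endothelial genes summed to 197 to 226, 288 to 372 and 224 to 299 CPM, and *Kdr*, a VEGF receptor, passed the adjusted p after light at 0.87 ± 0.17 (adjusted p = 0.0166, edgeR) without reaching the fold cutoff. No gene of these lists was at 0 in any library. Without *Vtn* the other pericyte genes summed to 37.0 and 32.6 CPM in the controls, 47.9 and 59.3 CPM after light, and 51.3 and 53.9 CPM in minocycline A and B. For minocycline against light, 0 genes of both lists were called, and the medians were 0.17 and 0.28 on the log2 scale. At an unadjusted p under 0.05, 3 of 9 pericyte genes were higher and 1 lower against light, where 9.04% of all genes were higher. Against control 4 of 9 were higher, with a median of 0.60, where 5.39% of all genes were higher. These 9 include *Kcnj8* (8 and 6 counts in the controls) and *Ndufa4l2* (5 and 5), and for light against control 7 pericyte genes passed the filter. *Zic1* was furthest above both groups, with 31 and 23 counts in the controls, 25 and 48 after light, and 89 and 201 with minocycline. The pericyte gene *Cspg4* was called higher after light, at 2.66 ± 0.52 (adjusted p = 0.0196, edgeR), with 17 and 21 counts in the controls, 76 and 262 after light and 28 and 27 with minocycline.

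Markers of pigment cells moved with the smooth muscle genes across libraries. The 10 pigment cell genes summed to 29.01 and 89.6 CPM in controls 1 and 2, 40.03 and 61.2 CPM after light, and 332 and 1458 CPM in minocycline A and B. The ratios of the libraries were 4.39 for minocycline B to A and 3.09 for control 2 to control 1. All 10 were higher with minocycline than after light at an unadjusted p under 0.05, against 9.04% of all genes. The median log2 fold change was 3.78, and 0 were called. Without the minocycline libraries, for light against control, 9 of the 10 passed the filter on low counts. *Pmel*, which forms the fibrils of the melanosome, had 13 and 184 counts in the controls, 44 and 128 after light, and 1656 and 6424 with minocycline. At most 1 gene of the list was at 0 in a library.

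The stromal and striated muscle lists were also highest in minocycline B. The 10 stromal genes summed to 18.6 to 22.6 CPM in the controls, 21.5 to 26.7 CPM after light, and 56.3 and 188.8 CPM in minocycline A and B. Against light the median log2 fold change of the 9 genes tested was 3.21, and for light against control 7 passed the filter. *Lum* (2 and 6 counts after light) and *Fbln1* (8 and 8) passed the filter against light only through the minocycline libraries. The 16 genes of striated muscle, as in the muscles that move the eye, summed to 16.6 to 31.97 CPM in control and light-exposed libraries, 21.7 CPM in minocycline A and 123.5 CPM in minocycline B. *Myh4*, a fast skeletal myosin, had 0 counts in both controls, 6 and 4 after light, and 25 and 319 in minocycline A and B. Neither list had a called gene in the 3 comparisons, and 0 to 1 stromal and 0 to 2 striated muscle genes were at 0 in a library.

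Genes of the corneal epithelium were high in both minocycline libraries and more alike between them. The sum of 10 such genes was 5.14 to 12.7 CPM in the controls, 9.64 to 21.7 CPM after light, and 212 and 301.7 CPM in minocycline A and B. The ratio of minocycline B to A was 1.42 for this sum, 3.21 for the sum of the 10 smooth muscle genes and 4.43 for these without *Synpo2*. Of the list, 2 genes were called for minocycline against light, *Dsp* at 4.78 ± 0.47 and *Calml3* at 3.55 ± 0.38 (adjusted p = 0.0444 and 0.0458, edgeR). Against control 3 were called, these and *Dsg1a*. Of all genes, 0.0475% and 0.134% were called in these comparisons. *Dsg1a*, with 1 and 0 counts in the controls, passed the filter on low counts only through the minocycline libraries. Up to 2 genes of the list were at 0 in a control or light-exposed library and 0 with minocycline. Lens genes were highest in light-exposed replicate 1, which had 0 of 8 at 0 counts and where *Acta2* stood at 2.75 CPM. The 6 genes of the retinal pigment epithelium summed to 110.1 to 349 CPM with the highest value in control 2, and the 5 periocular mesenchyme factors to 58.9 to 95.1 CPM, nearly all of it *Tfap2b*. Another of these factors, *Foxc1*, had 10 and 5 counts in the controls, 5 and 6 after light, and 19 and 36 with minocycline. Its log2 fold change was 2.23 ± 0.60 against light (adjusted p = 0.106, edgeR), where it passed the filter on low counts only through the minocycline libraries. The 10 microglial genes summed to 36.2 to 44.4 CPM in the controls, 359 to 1134 CPM after light and 35.1 to 81.9 CPM with minocycline. The part of pigment cell, stromal, striated muscle or corneal RNA in the values of the smooth muscle genes was not tested, and in these libraries it cannot be told apart from the minocycline treatment.

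**Figure D4:**
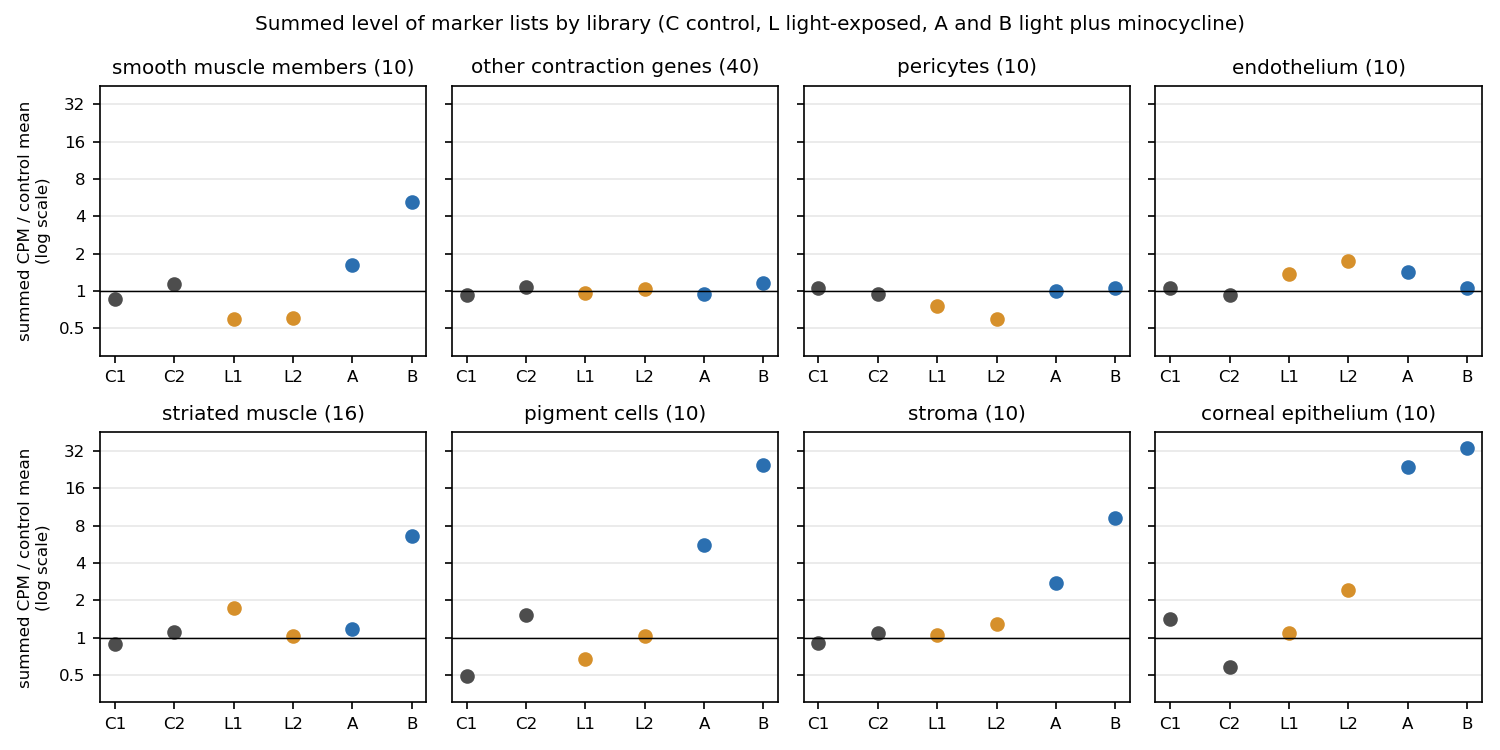
Summed CPM of 8 gene lists in each library, divided by the mean of the controls, on a log scale (number of genes in brackets). Smooth muscle, pigment cell, stromal and striated muscle genes are all highest in minocycline B, corneal genes are high in minocycline A (212 CPM) and B (301.7 CPM), and pericyte genes, mostly *Vtn*, stay between 550.3 and 973 CPM.

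Sequence shared with other genes bears on few of these values. The exons of *Acta2* shared 0.326% of their 50-base stretches with other genes, including *Actg1*, and those of *Actg2* none. *Myh11* shared 0.340% with non-muscle myosins, and *Myl9*, *Cnn1* and *Lmod1* shared none. *Smtn* shared 9.46% with the antisense transcript *Gm11946*, and *Des* 4.61% with the antisense gene *Gm15179*. *Tagln*, at 58.3%, was the one gene of the set with over 10% shared.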

How the data were processed

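The authors prepared stranded mRNA libraries of retinal RNA, sequenced single reads, used RNA Express with the STAR aligner and the mm10 genome to obtain gene counts. The deposited values are counts per gene, whole numbers whose totals differ between libraries. The data statement of the study calls the deposit normalized DESeq2 counts, but the values were taken as counts without normalization for that reason. The annotation, the tool versions and the use of strand are not given in the sources used here. All value columns were used. Each pair of groups was fitted on its own in R 4.3.3 with edgeR 4.0.16 (filterByExpr filter, TMM, robust quasi-likelihood F test, Benjamini-Hochberg adjustment over all genes tested). CPM used TMM library sizes of all 6 libraries, log2 CPM a prior count of 2, and fitted changes a prior count of 0.125. The SE of a fitted change was derived from the test, as the size of the change divided by the square root of the F statistic. Ratios between libraries carry exact binomial 95% intervals, which cover counting error only. Positions, exon lengths and shared 50-base stretches came from GENCODE M21 (GRCm38). Between replicates, counts differed beyond counting noise, with a chi-square per degree of freedom of 27.4 to 30.4. Alternatives were DESeq2 1.42.0, other size factors and filters, one fit of all libraries, another prior count, the replicate number as a block, and each library left out. Named genes were the members, the genes of each list that were called or among the 4 with the largest change, and the 10 most like the members; of these, some are summarised by their list. Members and lists were chosen with earlier results of these data known. The fits were tested on simulated data.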

Additional observations from a re-analysis of the deposited data

How the results depend on the processing

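The number of smooth muscle genes called was 0 in each comparison and changed under some alternatives. For light against control it was 1 (*Synpo2*) by adjusted p alone. For minocycline against light it was 2 without the filter on low counts (*Cnn1* and *Lmod1*; 72 of all 18453 genes called higher), 6 with DESeq2 without shrunken fold changes (106 of 14750), 2 with all 6 libraries in one fit (*Cnn1* and *Lmod1*; 63 of 14713), and 0 to 6 with each library left out. Over the 8 genes that passed the filter in both groups, which leaves out *Cnn1*, the first 3 counts were 1, 5 and 1. For minocycline against control it was 1 without the filter (*Cnn1*, 96 of 18120 genes higher). It was 2 with DESeq2 without shrunken fold changes (*Myh11* and *Myl9*, 100 of 14181 genes higher). Leaving out single libraries also changed the counts with minocycline. The median log2 fold change with shrunken DESeq2 values was 0.79 against light and 0.39 against control. With each library left out it ranged from −0.94 to 0.72 for light against control (the highest without control 2), from 1.80 to 2.98 for minocycline against light, and from 1.72 (without minocycline B) to 3.52 for minocycline against control. For light against control, *Des* ranged from −0.10 (without control 1) to 1.19 with each library left out, *Acta2* from −1.06 to 1.14, *Myh11* from −1.17 to 0.79 and *Tagln* from −0.86 to 0.57, all highest without control 2 and lowest without control 1. *Smtn* ranged from −0.23 (without minocycline B) to 1.23 for minocycline against light. *Synpo2* for minocycline against control was −0.014 with DESeq2 size factors and with DESeq2, −0.0085 without the filter, −0.010 with shrunken values, −0.036 with all libraries, −0.093 without control 1, and from −0.22 (without minocycline B) to 0.17 with each library left out. The cause of these changes was not tested. Of the values of single genes under all alternatives, 301 kept their direction and side of the threshold, 29 kept their direction and passed it, and 12 turned direction.

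Over all genes, 3 to 746 were called for light against control (419 in the fits reported), 0 to 433 for minocycline against light (7) and 0 to 278 for minocycline against control (19). With total library size, the median over all genes shifted on the log2 scale to 0.24 for light against control and to −0.17 for minocycline against light. Same-numbered control and light-exposed libraries did not deviate together (r = −0.011 over 14713 genes). With the replicate block, 0 smooth muscle genes were called, their median was −0.15, and 478 genes were called in all. No paired analysis was possible because the libraries with minocycline carry no replicate number, for either comparison that uses them. With 2 libraries a group, no library could be tested as an outlier, and *Actg2* and *Cnn1* were at the limit of the depth outside the minocycline group.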
